A study of Mus musculus with 4 samples.

Results

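Of the 9925 lavage cells in the deposited matrix, 413 carried the authors' refined label B cells 2. They were taken by that label alone, and 404 of them came from the library of mice given both house dust mite (HDM) and Afghanistan particulate matter (APM). The mice were C57BL/6, and cells washed from the airspaces of 7 animals were pooled into 1 library per group. HDM+APM mice breathed aerosolized APM at 5 mg/m3 for 6 hours a day over 12 days and then received 10 µg of HDM through the nose. Both sensitizations (days 22 and 29), 3 challenges (days 36, 37 and 38) and lavage (day 39) followed the dust. HDM mice breathed filtered air and had the same allergen schedule, APM mice breathed the dust and received saline, and control mice had filtered air and saline. With 1 pooled library per group no difference has a replicate check, so nothing was tested. Every interval is a 95% interval for counting error only, and ages and sexes of the animals are not used here.

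B-1 cells are innate-like B lymphocytes known from the pleural and peritoneal cavities of mice, where they renew themselves and secrete natural IgM without T cell help. They are classically recognised by CD5, CD43 (Spn) and CD11b (Itgam) on the surface. Follicular B cells, the common recirculating type, home to lymphoid tissue through CCR7 and CXCR5 and carry CD23 (Fcer2a) and CD21 (Cr2). Zcwpw1, Plac8, S100a6, Mzb1 and Cd79a were the genes given as markers of B cells 2, so their height there is a description and supports nothing. Immunoglobulin constant region genes were not analysed here.

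The 3 sites printed first belong to genes among the 12 highest of B cells 2 over B cells 1, and are shown because a promoter window of each holds one of the motifs searched. The sequences are RefSeq's on GRCm38.p6, written 5′ to 3′ on the gene's strand, with the motif in capitals. Prkar2b, a regulatory subunit of protein kinase A, is shown for the 231 bases before its gene, at chr12:32061297-32061527 on the minus strand. Fgl2, a secreted fibrinogen-like immune regulator, is shown for the 219 bases before its gene, at chr5:21372423-21372641 on the plus strand. Ass1, the arginine-synthesis enzyme argininosuccinate synthase, is shown for 30 bases at chr2:31470222-31470251 on the plus strand, because its motif lies inside the GENCODE gene.
Prkar2b: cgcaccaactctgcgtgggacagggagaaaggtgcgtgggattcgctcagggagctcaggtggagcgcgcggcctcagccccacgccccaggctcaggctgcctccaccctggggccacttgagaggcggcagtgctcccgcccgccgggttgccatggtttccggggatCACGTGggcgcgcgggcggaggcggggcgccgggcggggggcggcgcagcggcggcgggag
Fgl2: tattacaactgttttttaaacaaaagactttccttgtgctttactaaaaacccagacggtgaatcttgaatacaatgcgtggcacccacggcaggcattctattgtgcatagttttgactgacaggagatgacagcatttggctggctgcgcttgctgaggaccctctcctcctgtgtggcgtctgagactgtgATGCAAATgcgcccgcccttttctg
Ass1: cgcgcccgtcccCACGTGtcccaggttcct
The capitals mark CACGTG, the E-box of basic helix-loop-helix factors, in Prkar2b and Ass1, and ATGCAAAT, the octamer of POU factors such as Pou2f2, in Fgl2. Both motifs were searched on both strands of the 250 bases before each RefSeq start, and they cannot overlap each other. CACGTG was found in 2 of the 10 highest genes with a window (20%), against 1854 of 27025 genes overall (6.86%). ATGCAAAT was found in 1 of those 10, against 1.81% of all genes. These matches describe letters in a window and no binding was measured.

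B cells 2 made up 404 of 1123 HDM+APM cells, or 36.0% (33.2 to 38.9), against 9 of 994 HDM cells, or 0.905% (0.415 to 1.71). No cell of the label came from the 3890 APM cells or the 3918 control cells. A count of 0 there, taken as 3 counts, allows a share of up to 0.0771% in APM and 0.0766% in control. The other B cell label, B cells 1, ran the opposite way, with 45 HDM+APM cells (4.01%, 2.94 to 5.33) against 119 HDM cells (12.0%, 10.0 to 14.2). Among B cells alone, B cells 2 were 90% (86.8 to 92.6) of 449 in HDM+APM and 7.03% (3.27 to 12.9) of 128 in HDM. Both labels were cut from expression that also differs between the libraries, so these shares describe the labels. Of 413 barcodes, 3 also occurred in another library, and none of those was a B cell there.

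Depth nearly separated the labels, which bears on every comparison between them. B cells 2 of HDM+APM held 2545 to 9998 UMIs (unique molecular identifiers, 1 per captured transcript), with a median of 5448, against 1310 to 3328 in B cells 1 of the same library, with a median of 1796. In the HDM library the ranges were 2499 to 5069 and 725 to 3109, with medians of 3514 and 1368. The range that both labels held in HDM+APM, 2545 to 3328 UMIs, contained 24 of 404 B cells 2 and 5 of 45 B cells 1. Median mitochondrial shares were close, at 4.56% and 4.35%, and median ribosomal protein shares were 48.0% and 42.6%. Summed UMIs were 2297729 in B cells 2 and 87212 in B cells 1, so the precision of each ratio is set by B cells 1. What depth contributes to the split between the labels cannot be told apart from what the cells express.

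**Figure D1:**
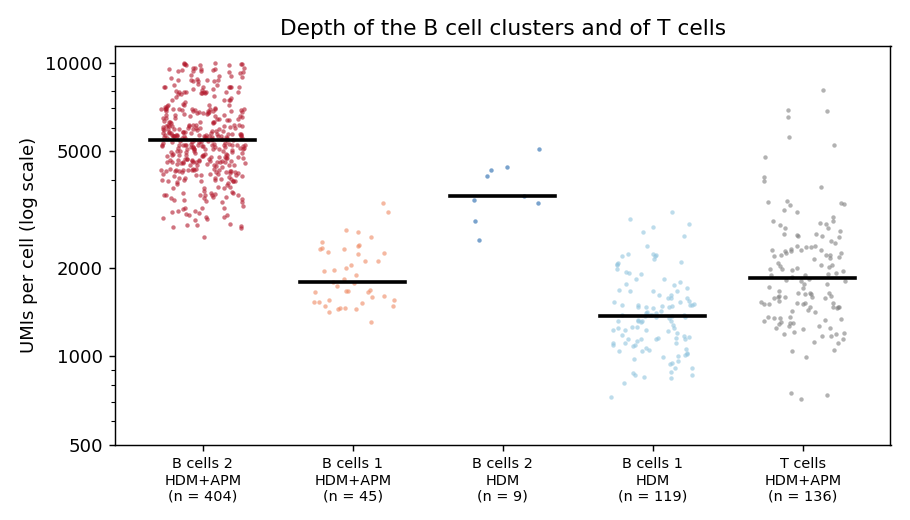
UMIs per cell (log axis) for B cells 2 and B cells 1 of the HDM+APM and HDM libraries and for T cells of HDM+APM; each point is a cell and each black line a median. The B cells 2 of HDM+APM lie at 2545 to 9998 UMIs and B cells 1 of that library at 1310 to 3328.

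Levels below are CPM, a gene's UMIs per 1000000 UMIs, summed over the cells of a label in a library. The 10 genes with the highest ratio of B cells 2 over all other cells were Cd79a, Plac8, Cd79b, Ly6d, Ms4a1, Mzb1, Ebf1, S100a6, Pou2f2 and Siglecg. All but Pou2f2, which encodes the octamer-binding factor Oct-2, are on the pan-B, B-1 or given marker lists. The label was cut from these same genes. Cd79a, the signalling chain of the B cell receptor, stood at 1397 CPM (1350 to 1447) in B cells 2 and 1284 CPM (1057 to 1545) in B cells 1 of HDM+APM. Its level was 1462 CPM in B cells 2 and 1369 CPM in B cells 1 of HDM, against 75.2 CPM in T cells of HDM+APM. Ms4a1, which encodes CD20, was at 702 CPM in B cells 2 and 355 CPM in B cells 1 of HDM+APM. Cd79a thus stood near the same level in both labels of both libraries, far above T cells. In the few cells of shared depth its log2 ratio of B cells 2 over B cells 1 was 1.95, against 0.12 over all cells.

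The 3 classical surface genes of B-1 cells were measured beside T cells, which express Cd5 and Spn themselves. Cd5 gave 3 UMIs in 404 B cells 2 (1.31 CPM, 0.269 to 3.82), against 34.2 CPM (16.4 to 62.8) in T cells of the same library. Spn, which encodes CD43, was at 12.6 CPM (8.45 to 18.1) in B cells 2 and 123 CPM in T cells. B cells 1 of HDM+APM gave 0 UMIs of Cd5 and of Spn, which at 3 counts allows up to 34.4 CPM of each. Itgam was at 48.3 CPM (39.7 to 58.2) in B cells 2 and 23.9 CPM (9.62 to 49.3) in T cells, with 2 UMIs (22.9 CPM, 2.78 to 82.8) in B cells 1. The cells named classical monocyte held 975 CPM of Itgam. After every cell was thinned to 1000 UMIs, Itgam was seen in 4.46% of B cells 2 (2.66 to 6.95) and 3.03% of T cells (0.832 to 7.58), a type that should hold little of it. Unthinned, the shares were 20.8% and 5.15%, at median depths of 5448 and 1850 UMIs. The intervals of the thinned Itgam shares overlapped. Itgam in B cells 2 was 4.95% of the level in the cells named classical monocyte, against 2.35% in B cells 1 and 2.45% in T cells, and the part of macrophage RNA in it was not tested. The cells are called by their label, B cells 2.

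Several lower genes of the B-1 list were seen above T cells. Zbtb32, a transcriptional repressor of activated B cells, was at 77.9 CPM (66.9 to 90.2) in B cells 2, against 22.9 CPM (2.78 to 82.8) in B cells 1. T cells held 10.2 CPM of it. Nid1, which encodes the basement membrane protein nidogen, was at 40.5 CPM (32.7 to 49.6) in B cells 2 and 22.9 CPM in B cells 1, with 0 UMIs in T cells. Il5ra, the receptor through which interleukin 5 sustains B-1 cells in mice, gave 44 UMIs in B cells 2 (19.1 CPM, 13.9 to 25.7) and 0 in B cells 1 and in T cells. A count of 0 in B cells 1 allows up to 34.4 CPM (3 counts), so no difference in Il5ra between the B cell labels was detectable at this depth. Bhlhe41, a regulator of B-1a cell maintenance in mice, was at 61.8 CPM in B cells 2 and 57.3 CPM in B cells 1 of HDM+APM. The intervals of Zbtb32, Nid1 and Bhlhe41 in the labels overlapped.

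The main comparison set B cells 2 against B cells 1 within HDM+APM, and covered 1155 genes with at least 100 CPM in either label and 20 UMIs over both. A gene is counted as higher or lower from 2-fold on, after 10 CPM was added to both levels; folds with an interval are plain ratios. In B cells 2, 33 genes were higher (2.86%) and 130 were lower (11.3%). The median log2 ratio over all 1155 genes was -0.23, so a list is read against that shift and not against 0. With the labels scaled to a median ratio of 0, 56 genes were higher and 70 lower. In cells within the depth that both labels held, an alternative chosen after the data were seen, 55 of 417 genes were higher and 39 lower. Counting error bears on both counts, because 100 CPM is 8.72 UMIs in B cells 1. Of the 33 higher genes, 9 had an interval wholly above 2-fold (Zcwpw1, Prkar2b, Ass1, Fgl2, Dnajc7, Tppp3, S100a6, Plac8 and Ly6a), and of the 130 lower genes 24 had one wholly beyond 2-fold. With 100 CPM asked of the mean of both labels, also chosen after the data were seen, 16 were higher and 58 lower. The labels were defined on these same genes, so each value describes how they differ and tests nothing.

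**Figure D2:**
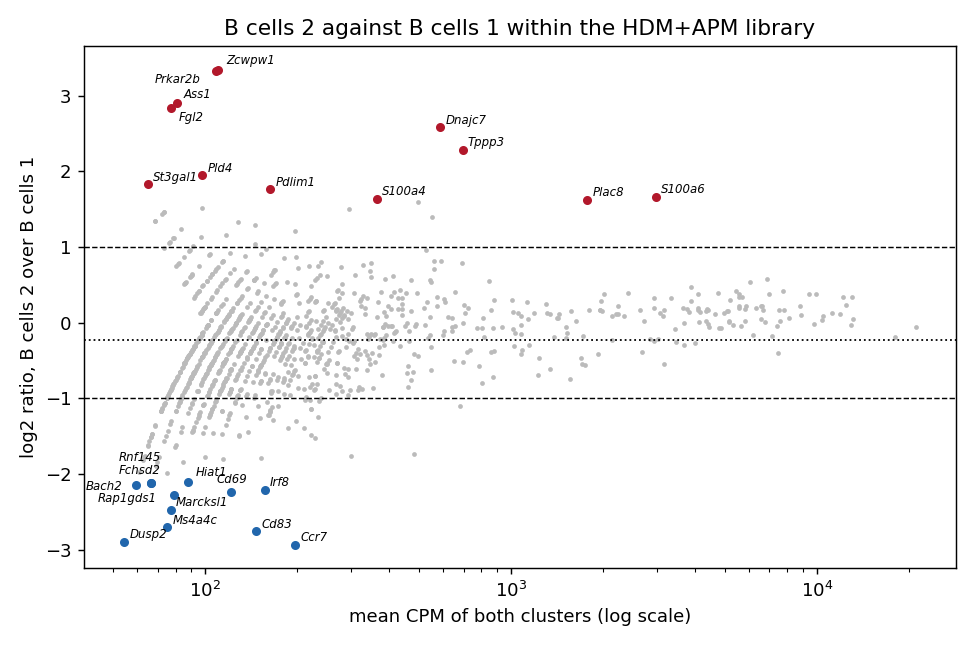
Log2 ratio of B cells 2 over B cells 1 in the HDM+APM library against the mean CPM of both (log axis), 1 point per gene of 1155. Red marks the 12 highest and blue the 12 lowest genes; dashed lines mark 2-fold and the dotted line the median of -0.23.

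The genes highest in B cells 2 over B cells 1 were led by Zcwpw1, a histone methylation reader known from meiotic recombination. It was at 208 CPM (190 to 228) in B cells 2 and 11.5 CPM (0.290 to 63.9) in B cells 1 of HDM+APM, an 18.1-fold ratio (3.24 to 718) that rests on 1 UMI in B cells 1. In HDM it was at 29.8 CPM and 5.75 CPM, again 1 UMI each. T cells held 3.42 CPM, the cells named classical monocyte 17.7 CPM and the granulocyte-like cells 114 CPM, the last from 4 UMIs. A UMI of Zcwpw1 was seen in 150 of 404 B cells 2 (37.1%, 32.4 to 42.0), against 1 of 45 B cells 1 and 1 of 136 T cells. Thinned to 1000 UMIs per cell, the shares were 15.1% (11.8 to 19.0) in B cells 2, 2.22% (0.0563 to 11.8) in B cells 1 and 0.758% (0.0192 to 4.15) in T cells.

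S100a6 and Plac8 were the most abundant of the 12. S100a6, a small calcium-binding protein, was at 4537 CPM in B cells 2, 1422 CPM in B cells 1 of HDM+APM, 1134 CPM in B cells 2 of HDM and 178 CPM in B cells 1 of HDM. The ratio of B cells 2 to B cells 1 was 3.19 (2.67 to 3.84) in HDM+APM and 6.36 (3.85 to 10.6) in HDM. Plac8, a cysteine-rich protein of lymphoid and myeloid cells, was at 2678 CPM in B cells 2 and 860 CPM in B cells 1 of HDM+APM, 3.11-fold (2.48 to 3.96). In HDM it was at 2894 CPM in B cells 2 and 1938 CPM in B cells 1, 1.49-fold (1.18 to 1.88). Plac8 of B cells 2 in HDM+APM was 0.925 times that in HDM (0.757 to 1.14), and Plac8 of B cells 1 in HDM+APM was 2.25-fold lower (1.75 to 2.93) than in HDM. S100a4, another S100 protein, was at 557 CPM in B cells 2 and 172 CPM in B cells 1 of HDM+APM, 3.24-fold (1.96 to 5.80).

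Tppp3 and Dnajc7 were both high on many UMIs, and their levels in HDM were unlike. Tppp3, which binds and stabilises microtubules, was at 1159 CPM in B cells 2 and 229 CPM in B cells 1 of HDM+APM, 5.05-fold (3.27 to 8.29). In HDM it gave 0 UMIs in B cells 2 and 1 UMI in B cells 1 (5.75 CPM). T cells held 102 CPM (69.2 to 146) in HDM+APM and 3.96 CPM (0.817 to 11.6) in HDM, and the cells named classical monocyte held 346 CPM. Tppp3 thus stood higher in HDM+APM than in HDM in B cells 1, B cells 2 and T cells, and highest in B cells 2. B cells 2 held 2297729 of the 5197132 UMIs of HDM+APM, and T cells there held the B cell gene Ebf1 at 34.2 CPM. The part of RNA carried over from B cells 2 in the Tppp3 of T cells and B cells 1 was not tested. It was seen in 57.9% of thinned B cells 2, 20% of thinned B cells 1 and 9.85% of thinned T cells.

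Dnajc7, a co-chaperone of heat shock proteins, was at 1011 CPM in B cells 2 and 161 CPM in B cells 1 of HDM+APM, 6.30-fold (3.75 to 11.5). In HDM it was at 1820 CPM in B cells 2 and 828 CPM in B cells 1, 2.2-fold (1.60 to 2.99). T cells of HDM+APM held 116 CPM and the cells named classical monocyte 89.6 CPM. Dnajc7 was therefore higher in B cells 2 than in B cells 1 within both libraries. In HDM+APM it was low outside B cells 2, with 139 CPM in the cells labelled Macrophage - 8 beside the 161 CPM in B cells 1. Over every other type of HDM+APM with at least 30 cells it had the highest ratio of any gene, ahead of Prkar2b, Tppp3, Plac8 and Napsa.

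Prkar2b was at 206 CPM (188 to 226) in B cells 2, with 1 UMI in B cells 1 of HDM+APM (11.5 CPM) and 0 in both B cell labels of HDM. B cells 2 of HDM+APM were at least 12.0-fold higher than B cells 1 of HDM, taking 3 UMIs over that label as the floor. Ass1 was at 150 CPM in B cells 2 and 11.5 CPM in B cells 1 of HDM+APM, and at 149 CPM (5 UMIs) and 23 CPM in those of HDM. Fgl2 was at 143 CPM and 11.5 CPM in HDM+APM, and at 29.8 CPM and 23 CPM in HDM. For Zcwpw1, Prkar2b, Ass1 and Fgl2 the single UMI in B cells 1 gives each ratio a wide interval, 2.23 to 495 for Fgl2. In cells of shared depth the log2 ratio of Zcwpw1 was 1.26, against 3.34 over all cells. There S100a4 was at 0.57, under 2-fold, against 1.64, and Pld4 at 0.77, against 1.95, with 5 cells of B cells 1.

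The other genes of the 12 highest were Pld4, an endolysosomal nuclease, Pdlim1, an actin-linked adaptor, and St3gal1, a sialyltransferase. Pld4 was at 161 CPM in B cells 2 and 34.4 CPM in B cells 1, and it was also at 126 CPM in the cells named classical monocyte. Pdlim1 was at 258 CPM in B cells 2 and 68.8 CPM in B cells 1. St3gal1 was at 107 CPM in B cells 2 and 22.9 CPM in B cells 1. All 12 had ratios whose interval lay above 1. Napsa, an aspartic protease, and Uchl3, a deubiquitinating enzyme, were among the 10 genes highest over every other type, at 442 and 210 CPM in B cells 2 and 149 and 80.3 CPM in B cells 1.

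**Figure D3:**
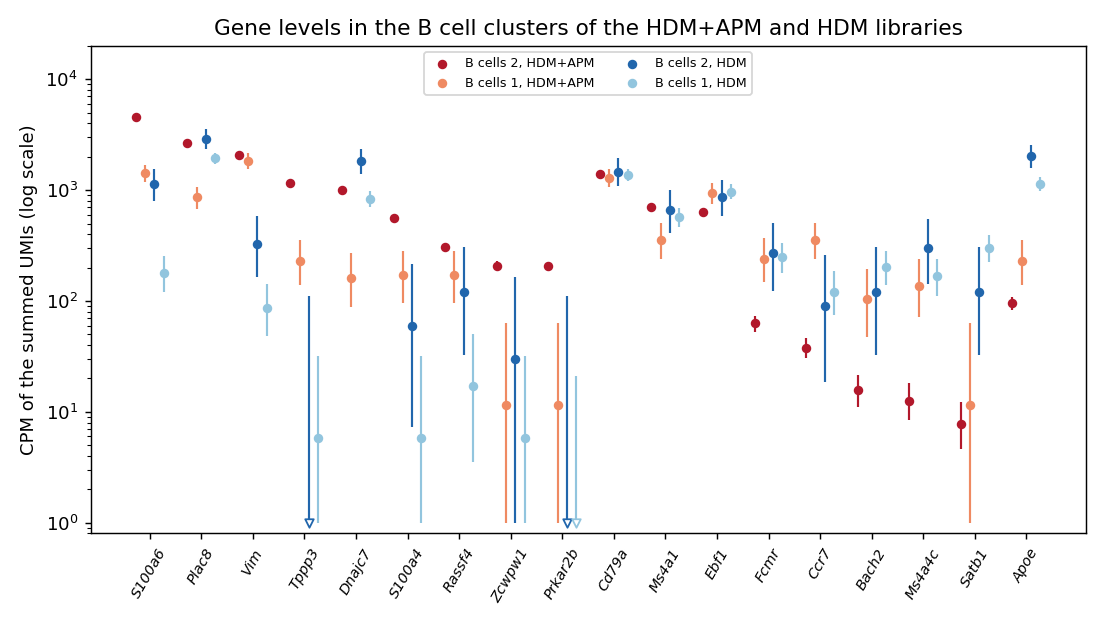
CPM (log axis) of 18 genes in B cells 2 and B cells 1 of the HDM+APM and HDM libraries; bars are 95% Poisson intervals drawn down to 1 CPM at the lowest, and open triangles mark 0 UMIs. S100a6, Vim, Tppp3 and S100a4 stand higher in both labels of HDM+APM than in those of HDM, while Cd79a lies between 1284 and 1462 CPM in all 4.

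The genes lowest in B cells 2 against B cells 1 included the lymph node homing receptor, activation genes and factors of the follicular programme. Ccr7 was at 37.9 CPM (30.3 to 46.7) in B cells 2 and 355 CPM (242 to 505) in B cells 1 of HDM+APM, 9.39-fold lower (6.02 to 14.3). In HDM it was at 89.5 CPM (18.5 to 262) in B cells 2 and 121 CPM (74.8 to 185) in B cells 1, with overlapping intervals. Ms4a4c, a membrane protein of the CD20 family, was at 12.6 CPM in B cells 2 and 138 CPM in B cells 1, 10.9-fold lower (5.07 to 22.0), with a log2 ratio of -1.07 in cells of shared depth, against -2.71 over all cells. In HDM Ms4a4c was at 298 CPM in B cells 2 and 167 CPM in B cells 1, so the difference in HDM+APM was not seen there. Bach2, the repressor that holds B cells back from plasma cell fate, was at 15.7 CPM in B cells 2 and 103 CPM in B cells 1, where it rests on 9 UMIs. Irf8, a transcription factor of B and myeloid cells, was at 49.2 CPM in B cells 2 and 264 CPM in B cells 1, 5.36-fold lower (3.27 to 8.45).

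Cd83 and Cd69, surface proteins of recently activated lymphocytes, and Dusp2, a phosphatase induced by activation, were lower as well. Cd83 was at 30.5 CPM in B cells 2 and 264 CPM in B cells 1, 8.66-fold lower (5.16 to 14.0). Cd69 was at 35.7 CPM in B cells 2 and 206 CPM in B cells 1, 5.78-fold lower (3.27 to 9.72). Dusp2 was at 5.22 CPM in B cells 2 and 103 CPM in B cells 1. The remaining genes of the 12 lowest were Marcksl1, Rap1gds1, Fchsd2, Rnf145 and Hiat1, each at 16.5 to 27.0 CPM in B cells 2 and 115 to 149 CPM in B cells 1. They rest on 10 to 13 UMIs in B cells 1, and the log2 ratio of Rap1gds1 was 1.92 in cells of shared depth, against -2.28 over all cells. Cd69 was at -0.57 in cells with fewer than 2 UMIs of other types' markers, against -2.24 over all cells.

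The gene lists were counted in the same comparison, where 2.86% of all 1155 genes were higher and 11.3% lower. Of 31 B-1 genes in the matrix, 11 passed the minimum level, 6 were higher (Cd9, Anxa2, S100a6, Zcwpw1, Plac8 and Lgals1) and 0 were lower. Their median log2 ratio was 1.21. The list holds 4 of the 5 given markers, and without them 3 of 7 were higher, 0 lower, with a median of 0.80. Cd9 and Zcwpw1 stood under 100 CPM in B cells 1, so each passed only through its level in B cells 2. With 100 CPM asked of the mean of both labels, chosen after the data were seen, 5 of 10 B-1 genes were higher. None was lower there, and the median was 1.01. With a minimum of 50 CPM in either label, 7 of 15 were higher and 1 lower, with a median of 0.80. Anxa2, an annexin, was at 279 CPM in B cells 2 and 115 CPM in B cells 1. T cells held 157 CPM of it, the cells named classical monocyte 258 CPM and the cells labelled Macrophage - 8 761 CPM. Lgals1, the lectin galectin-1, was at 802 CPM in B cells 2 and 298 CPM in B cells 1, but T cells held 922 CPM of it. Cd9, a tetraspanin of B-1 and marginal zone B cells, was at 113 CPM and 34.4 CPM, and the cells named classical monocyte held 560 CPM. Vim, the intermediate filament vimentin, was at 2068 CPM and 1835 CPM, and Siglecg, an inhibitory receptor of B-1 cells, at 244 CPM and 241 CPM, both within 2-fold.

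Of 19 follicular genes, 8 passed, 4 were lower (Ccr7, Bach2, Fcmr and Ms4a4c) and 0 were higher, with a median of -1.39. Fcmr, the receptor for secreted IgM, was at 62.7 CPM in B cells 2 and 241 CPM in B cells 1, 3.84-fold lower (2.31 to 6.10). Members within 2-fold included Cxcr5 at 125 and 161 CPM and Klf2, a factor of lymphocyte trafficking, at 918 and 952 CPM. Fcer2a gave 6.53 CPM (3.65 to 10.8) in B cells 2 and 57.3 CPM (18.6 to 134) in B cells 1, and Cr2 9.14 CPM and 22.9 CPM, both under the minimum level. Ccr7, Bach2, Fcmr and Ms4a4c all stood under 100 CPM in B cells 2, so each passed only through its level in B cells 1. The count of lower genes thus depends in part on that minimum. Asking 100 CPM of the mean of both labels, a choice made after the data were seen, left 6 follicular genes. Of those 6, 2 were lower and none higher (median log2 ratio -0.73). Only 2 follicular genes passed in cells of shared depth, of which 1 was higher and 0 were lower.

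Of 20 pan-B genes, 14 passed, 1 was lower (Fcmr) and 0 were higher, with a median of 0.04. In cells of shared depth 5 of 8 pan-B genes were higher and 0 lower, with a median of 1.48. Without cells holding 2 or more UMIs of other types' markers, 2 of 16 were higher and 2 lower, with a median of -0.06. Of 20 B cell receptor signalling genes, 9 passed and none reached 2-fold in either direction. Of 12 MHC class II genes, which present antigen to T cells, 9 passed and none reached 2-fold. H2-Aa was at 2637 CPM in B cells 2 and 3073 CPM in B cells 1, and Cd74, the class II chaperone, at 10813 CPM and 10148 CPM.

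Transcription factors of the B lineage and immediate early genes gave other counts in cells of shared depth than over all cells. The B cells 1 of shared depth are 5 cells, against which 5 of 8 pan-B genes were higher in B cells 2 (median 1.48). Over all cells 0 of 14 were higher, so those 5 cells are unlike B cells 1 as a whole in these genes. The part of depth in the changed counts was not tested. Of 40 factors, 14 passed, 5 were lower (Irf8, Bach2, Ikzf1, Mef2c and Rel) and 0 were higher, with a median of -0.85. Over all genes 11.3% were lower. Irf8 and Bach2 stood under 100 CPM in B cells 2, so both passed only through B cells 1. With 100 CPM asked of the mean of both labels, chosen after the data were seen, 4 of 12 factors were lower. None was higher there, and the median was -0.82. In cells of shared depth 1 of 5 factors was higher and 1 lower, with a median of -0.10. Without cells holding 2 or more UMIs of other types' markers, 7 of 16 factors were lower and none higher (median log2 ratio -0.25). Of 23 immediate early genes, 9 passed, 5 were lower (Junb, Ier5, Dusp2, Klf6 and Cd69) and 0 were higher, with a median of -1.10. In cells of shared depth 1 of 4 was higher and 0 lower, with a median of -0.02. Without cells holding 2 or more UMIs of other types' markers, 2 of 7 were lower and none higher (median log2 ratio -0.50). Ier5 was at 114 CPM in B cells 2 and 344 CPM in B cells 1. Ebf1, a founding factor of B cell identity, was at 630 CPM in B cells 2 and 940 CPM in B cells 1 of HDM+APM, within 2-fold.

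The S100, annexin and cytoskeleton list had 16 of 20 genes passing, with 4 higher (S100a4, S100a6, Anxa2 and Lgals1), 0 lower and a median of 0.36. Among homing receptors and integrins, 3 of 13 were higher (Itga4, Itgb7 and Cd9) and 2 lower (Ccr7 and P2ry10). Over all genes 2.86% were higher and 11.3% lower. The 3 higher genes stood under 100 CPM in B cells 1, and Ccr7 and P2ry10 stood under 100 CPM in B cells 2. Each of these genes thus passed only through the label where it was higher. Itga4 and Itgb7 encode the chains of the mucosal homing integrin alpha4beta7. Itga4 was at 121 CPM in B cells 2 and 45.9 CPM in B cells 1, and Itgb7 at 103 CPM and 34.4 CPM, with T cells at 78.6 and 102 CPM. In B cells 1, 3 UMIs make 34.4 CPM. Both cytokine genes that passed were lower, Ltb (lymphotoxin beta) at 218 CPM in B cells 2 and 745 CPM in B cells 1, and Tgfb1 at 62.7 CPM and 195 CPM. Tgfb1 passed only through its level in B cells 1. The interferon list had 4 genes passing, of which 1 was higher, Ly6a (Sca-1), at 749 CPM in B cells 2 and 241 CPM in B cells 1.

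**Figure D4:**
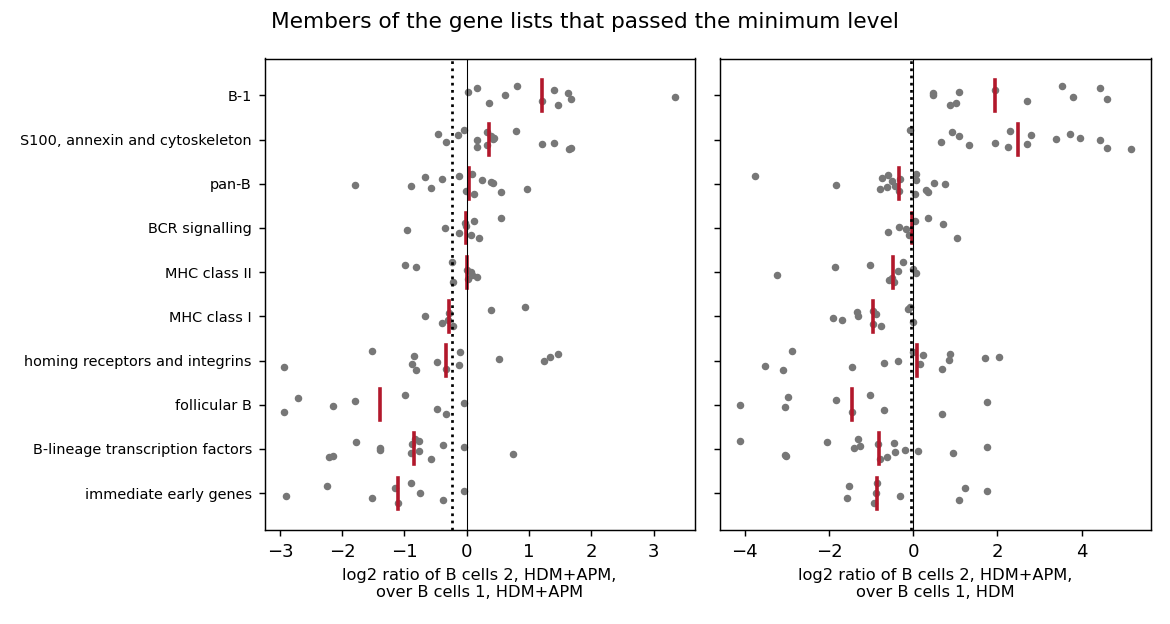
Log2 ratios of the members of 10 gene lists that passed the minimum level: B cells 2 of HDM+APM over B cells 1 of HDM+APM (left) and over B cells 1 of HDM (right). Each point is a gene, red bars are list medians and dotted lines the medians over all genes, -0.23 on the left and -0.04 on the right; the S100 list has a median of 0.36 on the left and 2.49 on the right.

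Transcripts of plasma cell genes were few. Jchain, which links IgM into pentamers, gave 33 UMIs in B cells 2 (14.4 CPM, 9.89 to 20.2) and 0 in every other B cell label. At 3 counts, a 0 allows up to 34.4 CPM in B cells 1 of HDM+APM and 17.3 CPM in B cells 1 of HDM. B cells 2 of HDM held still fewer UMIs, so no difference in Jchain between the labels was detectable. Sdc1 (CD138) and Prdm1, markers of plasma cells, gave 3 and 1 UMIs in 404 B cells 2. Mzb1, a chaperone of IgM secretion in marginal zone and B-1 cells, was at 499 CPM (470 to 528) in B cells 2 and 321 CPM (213 to 464) in B cells 1 of HDM+APM, and at 298 and 357 CPM in those of HDM. Il10, the cytokine of regulatory B cells, gave 3 UMIs. At least 5 UMIs of 18 cycling genes were seen in 8 of 404 B cells 2, 0 of 45 B cells 1 and 1 of 9 B cells 2 of HDM.

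B cells 2 of HDM+APM were also set against B cells 1 of HDM, the largest B cell label of that library, which compares label and library at once. Of 1108 genes compared, 91 were higher (8.21%) and 173 lower (15.6%), with a median of -0.04 over all. Of these, 40 and 91 had an interval wholly beyond 2-fold. It shares cells with the comparison within HDM+APM, so the values of both are given side by side and no overlap is drawn. B cells 1 of HDM+APM against those of HDM had 123 of 1189 genes higher (10.3%) and 123 lower (10.3%), with a median of 0.07.

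Of the S100, annexin and cytoskeleton list, 13 of 16 were higher in B cells 2 of HDM+APM than in B cells 1 of HDM, with a median of 2.49, against 4 of 16 and 0.36 within HDM+APM. Vim was at 2068 CPM in B cells 2 of HDM+APM and 86.3 CPM in B cells 1 of HDM, 24.0-fold (14.5 to 42.9). Crip1, a LIM domain protein, was at 8870 CPM and 834 CPM, 10.6-fold (9.03 to 12.6), and Ahnak, a giant scaffold protein, at 500.5 CPM and 23 CPM. In B cells 1, 10 of 14 members that passed were higher in HDM+APM than in HDM, among them Vim, 21.3-fold (12.5 to 38.9), and Crip1, 7.93-fold (6.60 to 9.59). T cells held Vim at 533 CPM in HDM+APM and 236 CPM in HDM, Crip1 at 3007 and 1659 CPM, and S100a6 at 690 and 779 CPM. Whether the library as a whole or the kind of B cell in it sets these levels cannot be told apart.

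The 9 B cells 2 of HDM held few UMIs, 33513 in all. Of the cytoskeletal list 13 of 16 were higher in B cells 2 of HDM+APM than in those 9 cells. Over all genes of that comparison, 142 of 1217 were higher (11.7%) and 318 lower (26.1%), with a median of -0.27. Of these, 15 and 75 had an interval wholly beyond 2-fold. Vim was at 2068 CPM in HDM+APM and 328 CPM (164 to 587) in HDM, and Crip1 at 8870 CPM and 1462 CPM (1082 to 1933). Satb1, a chromatin organiser, was at 7.83 CPM in HDM+APM and 119 CPM (32.5 to 306) in HDM, and Irf8 at 49.2 and 298 CPM. Of 8 follicular genes that passed, 5 were lower in B cells 2 of HDM+APM (Bach2, Satb1, Fcmr, Ms4a4c and H2-Ob) and 1 higher (Klf2), with a median of -1.65.

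Within the HDM library, B cells 2 had 49 of 998 genes higher (4.91%) and 115 lower (11.5%) than B cells 1, with a median of -0.05. Of these, 4 and 0 had an interval wholly beyond 2-fold. Of the B-1 list, 3 of 6 were higher (S100a6, Siglecg and Vim) and 1 lower (Lgals1). Siglecg was at 298 CPM (143 to 549) in B cells 2 and 109 CPM (65.8 to 171) in B cells 1, 2.73-fold (1.13 to 6.17). Rassf4, a RAS-associated adaptor, was at 119 CPM (32.5 to 306) in B cells 2 and 17.3 CPM (3.56 to 50.4) in B cells 1, and in HDM+APM at 307 CPM and 172 CPM. Cd9 was at 239 CPM (103 to 470) and 57.5 CPM (27.6 to 106).

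Of 9 follicular genes that passed, 6 were lower in B cells 2 of HDM+APM than in B cells 1 of HDM (Ccr7, Bach2, Satb1, Fcmr, Ms4a4c and H2-Ob) and 1 was higher (Klf2), with a median of -1.45. Of 10 MHC class II genes 3 were lower (H2-Eb2, H2-Oa and H2-Ob) and none higher (median log2 ratio -0.48). Satb1 was at 7.83 CPM in B cells 2 of HDM+APM and 299 CPM in B cells 1 of HDM, 38.2-fold lower (22.0 to 69.3), and at 11.5 CPM (1 UMI) in B cells 1 of HDM+APM. Bach2 was at 15.7 CPM and 201 CPM, 12.8-fold lower (7.83 to 21.1). Cxcr4, a receptor for the niche chemokine CXCL12, was at 73.6 CPM in B cells 2 of HDM+APM and 702 CPM in B cells 1 of HDM, and at 138 CPM in B cells 1 of HDM+APM. Cd72, an inhibitory receptor of B cells, was at 7.40 CPM and 224 CPM, 30.3-fold lower (16.8 to 57.1).

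In the same comparison MHC class I had 4 of 11 members lower and 0 higher, with a median of -0.96, and the interferon list 4 of 5 lower and 0 higher, with a median of -1.13. B cells 1 of HDM+APM against those of HDM had 6 of 11 MHC class I genes lower and 0 higher, with a median of -1.02, and all 5 interferon genes that passed lower, with a median of -1.61. H2-K1 was at 740 CPM in B cells 2 of HDM+APM and 1455 CPM in B cells 1 of HDM. Ifi27l2a, an interferon-induced gene, was at 757 CPM and 1622 CPM. Apoe, a lipid carrier made mostly by macrophages, was at 95.7 CPM in B cells 2 of HDM+APM and 1144 CPM in B cells 1 of HDM, 12.0-fold lower (9.82 to 14.5).

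RNA of red blood cells moved with this comparison. All 4 red cell genes that passed were lower, led by Hbb-bs at 17.4 CPM in B cells 2 of HDM+APM and 1426 CPM in B cells 1 of HDM. Hbb-bs was at 34.2 CPM in T cells of HDM+APM and 1270 CPM in T cells of HDM. The summed list of 8 red cell genes was at 37.4 CPM in B cells 2 of HDM+APM, against 2783 CPM in B cells 1 of HDM. Genes of plasmacytoid dendritic cells moved too: a UMI of Siglech, Cox6a2 or Ccr9 was seen in 3 of 404 B cells 2 and in 5 of 119 B cells 1 of HDM. Their part in the comparison with HDM was not tested. Without those 5 cells, an alternative chosen after the data were seen, 102 genes were higher and 170 lower.

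Against T cells of the same library, 102 of 1201 genes were higher in B cells 2 (8.49%) and 232 lower (19.3%), with a median of -0.31. All 13 pan-B genes and all 8 receptor signalling genes that passed were higher, as were 7 of 8 MHC class II genes, and all 10 T cell genes were lower. Of 17 interferon genes that passed, 15 were lower in B cells 2 and 0 higher. Isg15, a ubiquitin-like interferon product, was at 16.1 CPM in B cells 2 and 383 CPM in T cells. Of 12 MHC class I genes, 7 were lower, among them B2m at 1972 CPM in B cells 2 and 4677 CPM in T cells. In the S100 and cytoskeleton list 8 of 17 were higher and 0 lower, with S100a6 at 4537 CPM in B cells 2 and 690 CPM in T cells. Median depth was 5448 UMIs in B cells 2 and 1850 in T cells.

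Transcripts of macrophages were also found in the B cells. Levels of 10 genes were set against those in the cells named classical monocyte. Itgam, which is also on the B-1 list, was the highest of the 10 in B cells 2, at 4.95% of that level. The others stood at 2.39% (Alox15) to 3.86% (Lyz2) in B cells 2. Without Itgam, the range was 2.69% to 4.92% in T cells and 1.42% to 7.81% in B cells 1. Lyz2, lysozyme, was at 538 CPM in B cells 2, 768 CPM in B cells 1 and 540 CPM in T cells of HDM+APM, against 13931 CPM in the cells named classical monocyte. The summed monocyte and macrophage list of 14 genes was at 899 CPM in B cells 2, 1364 CPM in B cells 1 and 1596 CPM in T cells, and the T cell list of 12 genes at 66.2 CPM in B cells 2 and 3249 CPM in T cells. At least 2 UMIs of Cd3d, Cd3e or Cd3g were seen in 9 of 404 B cells 2. No doublet caller was run. Of the 404 B cells 2, 328 held 2 or more UMIs of markers of other types, as did 24 of 45 B cells 1. The median was 3 UMIs in B cells 2 and 2 in B cells 1. The markers included the Cd3 and C1q genes, Lyz2, S100a8 and S100a9. This cut is a fixed number of UMIs, so deeper cells reach it more readily, and it does not count doublets. The 76 B cells 2 with fewer than 2 such UMIs had 88 genes higher and 161 lower than such B cells 1. Their log2 ratio was 1.61 for S100a6, 4.51 for Zcwpw1 and 1.88 for Dnajc7. The part of these transcripts in the other differences was not tested.

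Within the 404 cells most genes were seen in about as many cells as 1 shared level per cell would give. For genes seen in nearly all cells, such as S100a6 (100%), this says little of how evenly their UMIs were spread. For the 825 genes of at least 100 CPM, the share of cells with a UMI fell short of that expected from their level and each cell's depth by a median of 0.907 percentage points. The widest gap belonged to Dennd5b, a regulator of membrane trafficking, seen in 37.6% of cells where 1 shared level would give 69.6%. Zcwpw1 came next, with 37.1% against 67.5%, followed by Hmgb2, a chromatin protein of dividing cells, with 28.5% against 48.8%, and S100a4, with 78.2% against 93.9%. Tppp3, with 93.3% against 99.5%, had rank 36 of the 825 by the width of the gap. Prkar2b, at about the level of Zcwpw1, was seen in 63.4% of cells against 67.2%, at rank 107.

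**Figure D5:**
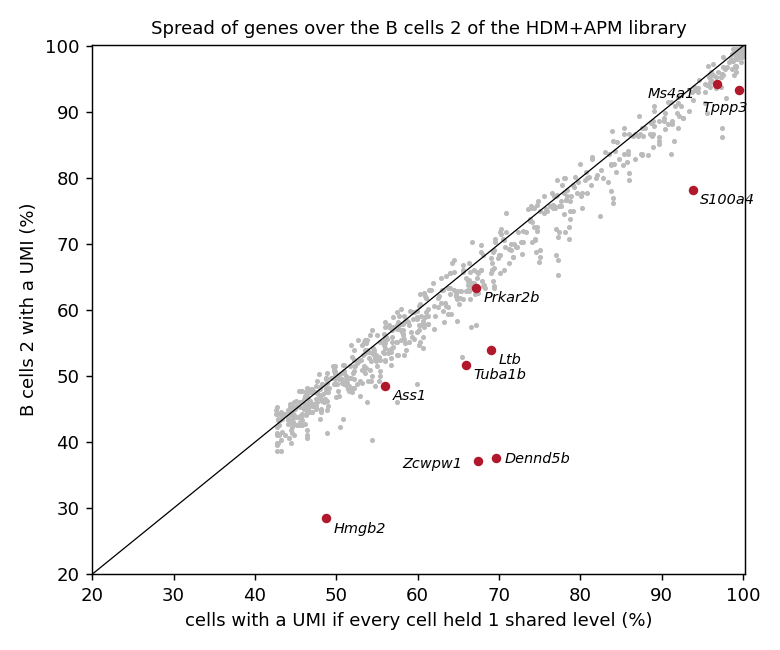
Percent of the 404 B cells 2 of HDM+APM with a UMI of a gene (vertical) against the percent expected if every cell held 1 shared level (horizontal), for 825 genes. Genes on the line were seen in as many cells as 1 shared level would give, which near 100% says little of their spread. Dennd5b and Zcwpw1 lie lowest below the line for their level, at 37.6% and 37.1%.

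UMIs of Zcwpw1 were thus concentrated in part of the B cells 2. It had 0 UMIs in 254 cells and 5 or more in 35 cells, which held 283 of its 478 UMIs, with a largest value of 18. The cells with 3 or more UMIs of Zcwpw1 (59) and of Dennd5b (47) shared 9 cells. At 5 or more UMIs, 35 and 31 cells shared 6. Whether these overlaps differ from those that the counts among 404 cells alone would give was not tested.

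Some genes differed with depth inside the label. Over 4 bands of 101 cells each, ordered from 2545 to 9998 UMIs, Irf8 was at 101, 56.2, 44.8 and 24.3 CPM and Ccr7 at 66.6, 38.1, 19.9 and 37.7 CPM. S100a6 was at 4054, 4583, 4859 and 4493 CPM and Plac8 at 2464, 2781, 2973 and 2498 CPM. Zcwpw1 was at 234, 287, 91.4 and 234 CPM and Prkar2b at 301, 171, 169 and 212 CPM. Irf8 thus stood lower the deeper the cells, while S100a6 and Plac8 kept within a narrow range and Zcwpw1 had no order. The part of depth in the lower Irf8 of B cells 2 against B cells 1 was not tested. The log2 ratio of Irf8 was -2.19 in the 24 B cells 2 and 5 B cells 1 of shared depth.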

How the data were processed

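Single cells of bronchoalveolar lavage were captured with 10x Genomics 3′ chemistry, 1 library per group. The values are UMI counts per gene and cell, which the authors deposited with their cluster labels; per the submitters' processing notes Cell Ranger 2.2.0, Seurat 2.3.4 and mm10 were used, with their roles not given. All 9925 cells were kept as deposited, no doublet caller was run, mixed cells were looked for by markers of other types, and 0 columns were unmapped. UMIs were summed per label and library (Python 3.11.15, numpy 2.4.6, scipy 1.17.1, pandas 2.3.3) and scaled to 1000000 UMIs (CPM), where libraries with more ribosomal or mitochondrial transcripts show lower values of other genes. Log2 ratios add 10 CPM; genes needed 100 CPM in either label and 20 UMIs over both. Intervals are 95% exact Poisson, conditional binomial and Clopper-Pearson intervals; UMIs of 1 pool are not independent animals. The code was checked on simulated data. Named genes are the 12 highest and 12 lowest ratios within HDM+APM, the 10 highest over every other type with at least 30 cells, the given marker, pan-B, B-1 and follicular lists, and up to 6 members of each other list. Members and lists were chosen with earlier results of these data known. Alternatives covered pseudocount, minimum level, scaling, thinning, free RNA and mixed cells.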

Additional observations from a re-analysis of the deposited data

Results flagged for a closer look

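For 9 of 809 genes measured in both allergen libraries, the ratio of B cells 2 to B cells 1 lay on opposite sides of 1 in HDM+APM and in HDM, with each counting interval clear of 1. The difference between the libraries was not tested, and B cells 2 of HDM are 9 cells. Mef2c, a transcription factor of B cell activation, had a ratio of 0.360 in HDM+APM (111 CPM in B cells 2, 310 CPM in B cells 1) and 1.83 in HDM (567 and 311 CPM). Herpud1, of the endoplasmic reticulum stress response, had ratios of 0.385 and 2.96. Kmt2e, a chromatin regulator, had ratios of 0.477 and 2.59. Atp6v1g1, a subunit of the vacuolar proton pump, had ratios of 0.537 and 3.54. Apoe had a ratio of 0.418 in HDM+APM and 1.77 in HDM. The actin genes Actb (0.844 and 1.24) and Actg1 (0.776 and 1.59) and the actin-binding Tmsb10 (0.686 and 1.35) moved in the same pattern. Tyrobp, a signalling adaptor of myeloid and NK cells, went the other way, with a ratio of 1.73 in HDM+APM (417 CPM in B cells 2, 241 CPM in B cells 1) and 0.310 in HDM (119 and 385 CPM).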

How the results depend on the processing

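No paired analysis was possible because each group is 1 pooled library. Of 86 alternative values of the counts and shares 58 stayed within 1.5 times or the interval; the cause of the other 28 was not tested. For B cells 2 against B cells 1 in HDM+APM (33 higher, 130 lower) the counts were 17 and 44 with a pseudocount of 50 CPM, 102 and 363 with a minimum of 50 CPM, 175 and 327 scaled without mitochondrial, ribosomal protein and Malat1 transcripts, and 56 and 70 with median-ratio scaling. Thinning to 1000 UMIs gave 71 higher, and leaving out cells with 2 or more UMIs of other types' markers 88 higher. Chosen after the data were seen, cells of shared depth gave 55 and 39, a minimum of 100 CPM in the mean of both labels 16 and 58, and B cells 2 thinned to the total of B cells 1 gave 71 lower. Against T cells (102 and 232) the minimum of 50 CPM gave 190 and 469 and the scaling without those transcripts 283 and 374. Against B cells 1 of HDM (91 and 173) the pseudocount of 50 CPM gave 58 and 99, the minimum of 50 CPM 178 and 391, and the scaling without those transcripts 257 and 402. The share of B cells 2, 36.0% of HDM+APM cells, was 41.7% of cells other than alveolar macrophages and 90.0% of B cells. It was 9.56% of 795 cells when only the B cells 2 with 2 or more UMIs of other types' markers were left out. That cut is a fixed number of UMIs that deeper cells reach more readily, and it does not count doublets. Of 416 alternative log2 ratios of 26 genes, 374 lay within the main value's counting interval, 41 outside it and 1 reversed, that of Rap1gds1, to 1.92 in cells of shared depth. Depth limits genes under about 100 CPM in B cells 1, whose 87212 UMIs set each interval.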
